A study of Homo sapiens with 45 samples.

Results

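Human chromosome 19 held 1951 of the 53713 distinct ChIP-seq regions that 12 deposited peak lists named, or 3.63%. A region belonged to it when its chromosome field read chr19 on the hg19 build, so no measured value entered the choice. CTCF, MBD2, MBD3 and TET1 were profiled in HEK293T cells, an established human embryonic kidney line. Cells received the solvent DMSO, BPK25 at 30 µM or IAA at 0.5 mM for 72 h, and what IAA acts on is not in the labels. Each of the 15 groups (12 of treatment and antibody, and 3 of input DNA) had 3 libraries, and the authors pooled replicates before they called peaks. Every value below therefore comes from 1 pooled list per group with no replicate error, no difference between lists or chromosomes was tested, and 95% Wilson intervals cover counting over regions only.

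CTCF is a zinc finger protein that binds a long DNA motif and marks insulators and the anchors of chromatin loops. MBD2 and MBD3 are alternative subunits of NuRD, a nucleosome remodelling and histone deacetylase complex, and MBD2 is the one of the pair known for binding methylated CpG. TET1 oxidises methylated cytosine and is found mainly at unmethylated CpG-rich DNA. Chromosome 19 is known as the most gene-dense human chromosome and carries large clusters of zinc finger genes. Gene density itself was not measured here, since gene annotation of the hg19 build was not used, and positions below are hg19 coordinates without gene names.

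In DMSO, chromosome 19 held 633 CTCF, 588 MBD2, 383 MBD3 and 256 TET1 regions. These were 3.63% (95% interval 3.36% to 3.92%) of the CTCF list, 3.68% (3.40% to 3.98%) of the MBD2 list, 3.78% (3.42% to 4.17%) of the MBD3 list and 3.55% (3.15% to 4.0%) of the TET1 list. Over the 59.1 Mb up to the furthest region end, the densities were 10.7 CTCF, 9.95 MBD2, 6.48 MBD3 and 4.33 TET1 regions per Mb. The median of the other 22 chromosomes (1 to 22 and X) was 5.37 CTCF, 4.83 MBD2, 3.13 MBD3 and 2.18 TET1 regions per Mb. Only chromosome 17 was denser, with 11.5, 10.4, 7.22 and 5.43 regions per Mb in the same order. Chromosome 19 thus ranked 2 of 23 in each of the 4 DMSO lists. The median distance between neighbours was 39.4 kb in the CTCF list, 42.8 kb in the MBD2 list, 63.9 kb in the MBD3 list and 80.3 kb in the TET1 list. No other chromosome had a shorter median spacing for any of the 4 antibodies.

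The regions were also of high enrichment. The authors' fold enrichment, a ratio of fragment pileup to local background at the summit, had a median of 4.73 for CTCF on chromosome 19, against 4.15 to 4.49 on the other chromosomes. For MBD2 the median was 4.84 (others 4.35 to 4.70), for MBD3 4.21 (others 3.59 to 4.16) and for TET1 3.67 (others 3.13 to 3.62). Chromosome 19 had the highest median fold of the 23 chromosomes in each DMSO list. The local background behind these folds was near the middle of the chromosomes. Its median was 1.68 times the smallest of the list for CTCF, rank 8 of 23 from the lowest. A background over 3 times that floor stood behind 6.66% of CTCF regions with a solved background on chromosome 19 and 10.1% elsewhere. CTCF regions were a median of 258 bp wide and TET1 regions 230.5 bp.

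**Figure D1:**
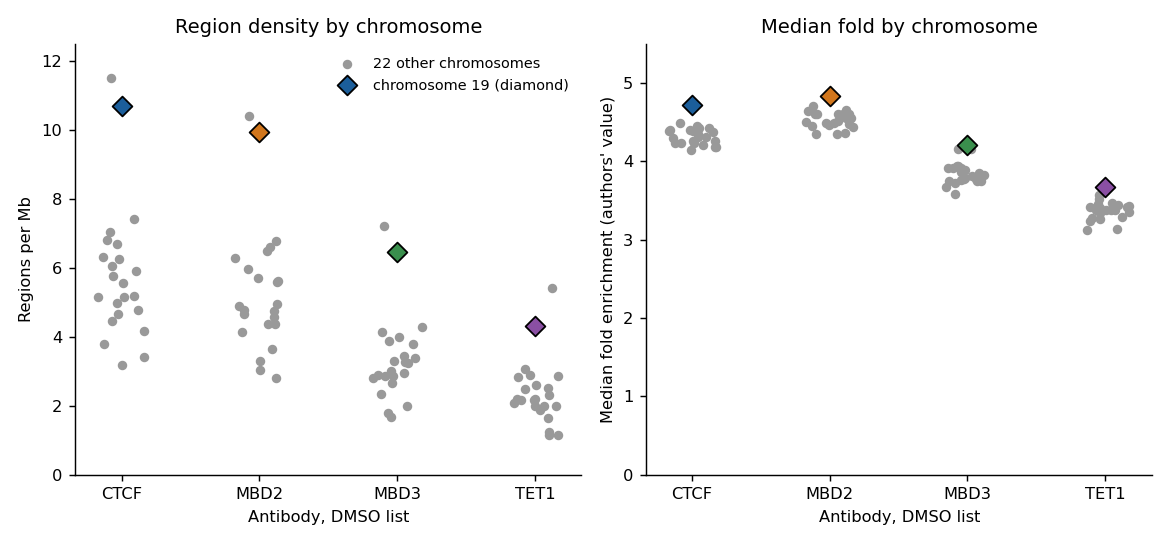
Regions per Mb (left) and median fold enrichment (right) of the 4 DMSO lists, with 1 point per chromosome; diamonds mark chromosome 19 and grey points the 22 other chromosomes, spread sideways for legibility. In density chromosome 19 lies below 1 grey point, chromosome 17, in each list, and in median fold it is the highest point of each list.

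Along the chromosome, regions of all 4 antibodies gathered in the same places. Of 60 bins of 1 Mb, 10 held no CTCF summit in DMSO, and the median bin held 8. The densest bin, from 48 to 49 Mb, held 34 CTCF, 35 MBD2 and 22 MBD3 summits. The next densest for CTCF were 42 to 43 Mb with 29, 49 to 50 Mb with 28, 50 to 51 Mb with 25, and 18 to 19 and 43 to 44 Mb with 24 each. The 5 densest bins together held 140 CTCF regions, or 22.1%. TET1 peaked in another bin, 50 to 51 Mb, with 17 summits. The stretch from 45 to 52 Mb alone carried 160 CTCF regions (25.3% of the chromosome's), 152 MBD2, 108 MBD3 and 76 TET1 regions. Across the 60 bins, counts of any pair of DMSO lists correlated with Pearson's r between 0.897 and 0.953 and Spearman's rho between 0.910 and 0.952. The lists share a cell line and possibly cultures, fixation and input libraries, so these values only describe the profile.

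Around the middle of the chromosome regions were sparse. From 20 to 33 Mb there were 12 CTCF, 11 MBD2, 15 MBD3 and 7 TET1 regions. The longest interval without a region in any of the 12 lists ran for 3.10 Mb, from 24630313 to 27731951, and was used here to divide the chromosome into arms. Other empty intervals ran from 21255771 to 24010279 (2.75 Mb), from 36682545 to 38242074 (1.56 Mb), from 27738657 to 28957110 (1.22 Mb) and from 52646477 to 53698657 (1.05 Mb). CTCF density was alike in the arms, with 279 regions or 11.4 per Mb before the interval and 354 or 11.3 per Mb after it. MBD3 had 6.11 regions per Mb before it and 7.42 after, and TET1 had 3.99 and 5.03.

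**Figure D2:**
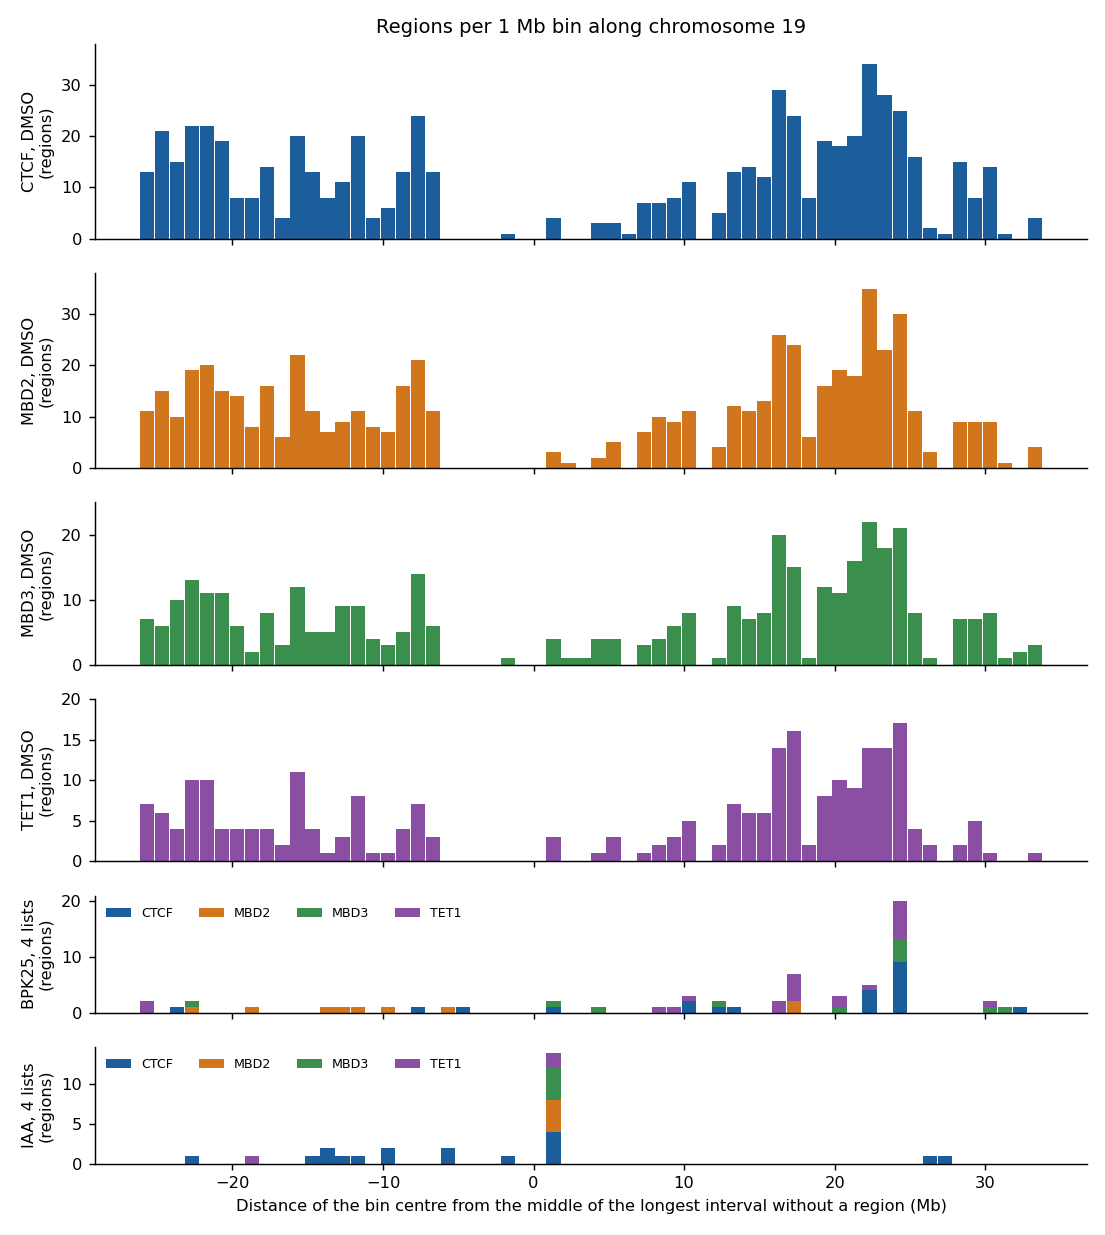
Regions per 1 Mb bin of chromosome 19, by distance of the bin centre from the middle of the longest interval without a region (Mb); the upper 4 panels show DMSO lists, and the lower 2 panels stack the 4 lists of BPK25 and of IAA by antibody. The DMSO profiles rise and fall together, BPK25 regions pile up in 1 bin with 9 CTCF, 4 MBD3 and 7 TET1 regions, and most IAA regions stand at the edge of the empty interval or, for CTCF, before it.

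Merged across the 12 lists, the regions formed 827 loci, of which 801 held a DMSO region. All 4 DMSO lists met at 166 loci. CTCF and MBD2 alone shared 142, CTCF, MBD2 and MBD3 shared 115, and CTCF, MBD2 and TET1 shared 44. Loci with a single antibody numbered 110 (CTCF), 91 (MBD2), 33 (MBD3) and 12 (TET1). MBD2 with MBD3 but without CTCF and TET1 was seen at 16 loci.

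Seen from CTCF, a partner was a DMSO region of another antibody that overlapped by 1 bp or more. MBD2 was a partner at 466 of 633 CTCF regions on chromosome 19, 73.6% (70.1% to 76.9%), with a background of 67.4% over the whole CTCF list. The pooled other chromosomes gave 67.3% (66.6% to 68.0%), and the next highest chromosome, 17, gave 72.9%. MBD3 was a partner at 326 regions, 51.5% (47.6% to 55.4%), with a background of 46.4%. TET1 was a partner at 227, 35.9% (32.2% to 39.7%), with a background of 33.9%, and here chromosome 19 ranked 7. All 3 partners stood at 165 CTCF regions, 26.1% (22.8% to 29.6%), with a background of 23.0%. No partner stood at 110, 17.4% (14.6% to 20.5%), with a background of 23.4%. That last share was the lowest of the 23 chromosomes, the others lying between 18.3% and 30.1%. These shares depend on the fold required in each list. With a fold of 5 or more, MBD3 stood at 28.1% of CTCF regions, TET1 at 7.41%, all 3 partners at 5.19% and none at 30.7%. That setting left 270 CTCF, 267 MBD2, 87 MBD3 and 22 TET1 regions on chromosome 19. The short MBD3 and TET1 lists cap these shares, so they do not show whether partners stand at weak or strong CTCF regions. The rank among chromosomes was not computed at that setting.

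Read from the partners, most regions lay at CTCF. CTCF overlapped 466 of 588 MBD2 regions, 79.3% (75.8% to 82.3%), with a background of 73.5%. It overlapped 327 of 383 MBD3 regions, 85.4% (81.5% to 88.6%), with a background of 80.0%, and 228 of 256 TET1 regions, 89.1% (84.6% to 92.3%), with a background of 82.1%. Regions of 1 antibody alone were few: 91 of 588 for MBD2, 15.5% with a background of 19.6%; 33 of 383 for MBD3, 8.62% with a background of 11.2%; and 12 of 256 for TET1, 4.69% (2.70% to 8.01%) with a background of 10.2%. For TET1 this share was the lowest of the 23 chromosomes, which otherwise ran from 6.72% to 18.9%.

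**Figure D3:**
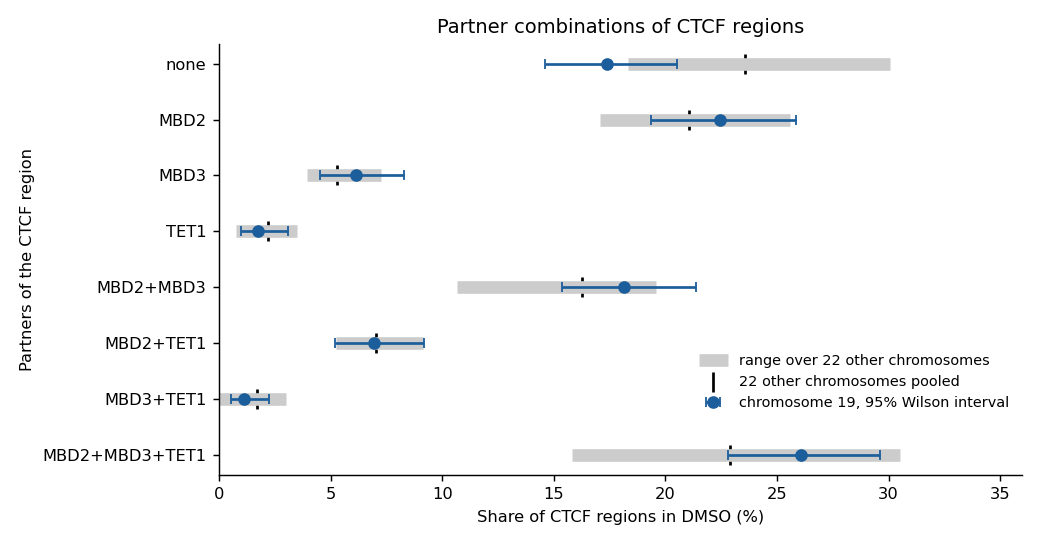
Share of DMSO CTCF regions with each combination of partners (%), for chromosome 19 with its 95% Wilson interval (points), the pooled other chromosomes (ticks) and the range over 22 single chromosomes (grey bars). The share with no partner, 17.4%, lies left of its grey bar, while every other combination lies within its bar.

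Where partners met, their summits nearly coincided. The summit of the nearest partner lay a median of 12 bp from the CTCF summit with each of the 3 partners. It lay within 50 bp at 95.3% of CTCF regions with MBD2, 94.8% with MBD3 and 89.0% with TET1, against 94.1%, 93.5% and 90.1% on the other chromosomes.

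CTCF fold was highest where all 3 partners met. The median CTCF fold on chromosome 19 was 4.11 at 110 regions without a partner, 4.47 at 192 with 1 partner, 4.64 at 166 with 2 and 5.74 at 165 with all 3. Single combinations did not all follow this order, since TET1 as the only partner had 3.90 (11 regions) and MBD3 with TET1 had 4.09 (7 regions). From the lowest to the highest of 4 equal classes of CTCF fold, the share with MBD2 was 57.2%, 70.3%, 77.8% and 89.2%. For MBD3 the shares were 36.5%, 46.2%, 50% and 73.4%, and for TET1 they were 23.3%, 22.8%, 34.8% and 62.7%. Regions without a partner fell from 30.2% of the lowest class to 6.33% of the highest. At shared regions the fold of CTCF and the fold of the partner correlated across regions, with Pearson's r of 0.684 and Spearman's rho of 0.661 for MBD2 (n = 466), 0.681 and 0.649 for MBD3 (n = 326) and 0.682 and 0.590 for TET1 (n = 227). Regions are not independent replicates, and the lists of a treatment may share input libraries. The fold of a region and its chance of being listed both grow with signal, so the part of list thresholds in this pattern was not tested.

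The partner shares also varied along the chromosome. From 45 to 52 Mb, where CTCF reached 22.9 regions per Mb, MBD2 stood at 80% (73.1% to 85.5%) of 160 CTCF regions, MBD3 at 62.5% (54.8% to 69.6%) and TET1 at 43.75% (36.3% to 51.5%). From 0 to 20 Mb, with 13.9 per Mb, the shares over 278 regions were 71.9%, 45.3% and 30.6%. From 52 Mb to the end, with 6.32 per Mb, they were 51.1%, 46.7% and 20% over 45 regions, and 33.3% (21.4% to 47.9%) of regions had no partner. The stretches were chosen after the bins had been seen. Over 29 bins with at least 10 CTCF regions, the share with MBD2 ran from 46.7% to 100% with a median of 75%, that with MBD3 from 23.1% to 80%, while TET1 ran from 7.14% to 64%. The highest of each came from 1 bin, 50 to 51 Mb, where all 25 CTCF regions had MBD2 and 15 had all 3 partners. The bin from 54 to 55 Mb stood at the other end, with 40% of its 15 CTCF regions without a partner. In the bin from 50 to 51 Mb, 9 of the 25 CTCF regions lay in the largest run of treated regions, described below. All 9 had all 3 partners, so this run makes up 9 of the bin's 15 such regions. The shares of the bin without the run were not computed.

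Of the DMSO regions of highest fold, all but 1 were shared by the 4 antibodies. The highest CTCF region lay from 8645610 to 8646000, with a fold of 11.2 in the CTCF list, 9.46 in the MBD2 list, 5.49 in the MBD3 list and 5.40 in the TET1 list. Next came 55671938 to 55672260, with folds of 10.8 (CTCF), 6.50 (MBD2), 5.48 (MBD3) and 5.59 (TET1). MBD2 was highest from 4567593 to 4567937 (11.9, with CTCF at 6.61) and from 41814320 to 41814780 (10.6, with CTCF at 7.92). TET1 was highest from 46320317 to 46320672, at 7.0 beside 7.97 for CTCF. None of these 5 regions was listed under BPK25 or IAA. MBD3 was highest from 36184566 to 36184970, at 8.77, where CTCF reached 10.0, MBD2 8.01 and TET1 6.62. That locus differed from the other 5 in staying listed under BPK25, for CTCF at a fold of 6.62 and for TET1 at 5.98. The second MBD3 region, from 46898896 to 46899137, had a fold of 7.59 and no DMSO TET1 region, but a BPK25 TET1 region at 6.83.

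Under treatment the lists were short, on chromosome 19 as elsewhere. The BPK25 lists held 22 CTCF, 9 MBD2, 11 MBD3 and 23 TET1 regions there. These were 5.87% of 375, 1.76% of 510, 2.94% of 374 and 2.96% of 777 regions in the whole lists. The IAA lists held 17, 4, 4 and 3 there, or 2.86% of 595, 2.90% of 138, 4.21% of 95 and 3% of 100. In regions per Mb, chromosome 19 ranked 1, 8, 3 and 3 of 23 under BPK25, in the same order of antibodies. Under IAA the ranks were 3, 4, 2 and 2. Of the 827 loci, 60 had a treated region, 34 of them at a DMSO locus and 28 at a locus of all 4 DMSO lists. Depth has to be read beside these counts. The floor of a list, its smallest local background, was taken as a stand-in for depth, which peak lists do not give. As a share of the DMSO floor, the treated floor was 5.89% (CTCF), 49.5% (MBD2), 7.92% (MBD3) and 20.4% (TET1) under BPK25. Under IAA it was 21.6%, 28.7%, 19.3% and 20.0%. With DMSO pileups on chromosome 19 thinned to the treated floor, 46.9 of 631 CTCF regions would pass the least −log10 p of the BPK25 list, and 14 were listed. The same count was 468 of 587 for MBD2, where 2 were listed, 32.3 of 381 for MBD3, where 6 were listed, and 77.8 of 255 for TET1, where 17 were listed. For CTCF under IAA it was 256 of 631, where 1 was listed. The IAA counts were 260 of 587 for MBD2, 76.2 of 381 for MBD3 and 40.5 of 255 for TET1, with 2 listed in each case. Only DMSO regions with a solved pileup enter the thinning, so several listed counts here are lower than those given below for all regions. The thinning takes the floor as depth, and background and fragment length as alike in both lists. The part of depth and of these assumptions in the counts was not tested.

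BPK25 left 15 of 633 DMSO CTCF regions listed on chromosome 19, 2.37% (1.44% to 3.87%), with a background of 1.27% over the whole list. The pooled other chromosomes gave 0.818% (0.692% to 0.967%). Single other chromosomes ran from 0% to 3.77%, and chromosome 19 ranked 2 of 23. For MBD2, BPK25 left 2 of 588, 0.340% (0.0933% to 1.23%), with a background of 1.45%. Here the others ran from 0.335% to 3.83%, and chromosome 19 ranked 22. For MBD3, BPK25 left 7 of 383, 1.83% (0.888% to 3.72%), with a background of 1.71%, and for TET1 17 of 256, 6.64% (4.19% to 10.4%), with a background of 6.91%. The MBD3 and TET1 shares were close to the background over whole lists. On the pooled other chromosomes the shares were 1.29% for MBD2, 1.19% for MBD3 and 6.72% for TET1. All 15 CTCF regions left had all 3 partners in DMSO, which was 9.09% (5.59% to 14.5%) of 165 such regions, against 2.71% elsewhere. No CTCF region with fewer partners was left, 0 of 110, 0 of 192 and 0 of 166 with 0, 1 and 2 partners. Those counts of 0 have upper Wilson bounds of 3.37%, 1.96% and 2.26%. On the other chromosomes the same shares were 0.128%, 0.295% and 0.336%, each below its bound.

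The CTCF regions left were not spread over the chromosome. Outside runs, defined after seeing the data as 3 or more treated regions of 1 list with at most 20 kb between neighbours, BPK25 left 1 of 611 CTCF regions, 0.164% (0.0289% to 0.921%), against 0.492% (0.396% to 0.611%) on the other chromosomes. Inside runs it left 14 of 22, against 55 of 160 elsewhere. Runs are made of treated regions, so the share outside them is lower by construction, and the split only describes where the regions lay. The 1 region outside was the locus at 36184679 to 36184924 named above. For MBD3, 5 of the 7 regions left lay in runs, with 2 of 361 outside, 0.554% against 0.580% elsewhere. For TET1, 8 of 17 lay in runs, with 9 of 238 outside, 3.78% (2.0% to 7.03%) against 6.37%. A local background over 3 times the list's floor in DMSO was found at 12 of the 15 CTCF regions left, not at 2, and could not be solved at 1. Of the 42 DMSO CTCF regions on the chromosome with such a background, 28.6% (17.2% to 43.6%) were left, against 4.44% (3.55% to 5.53%) of 1668 elsewhere. The part of the raised background in these results was not tested.

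**Figure D4:**
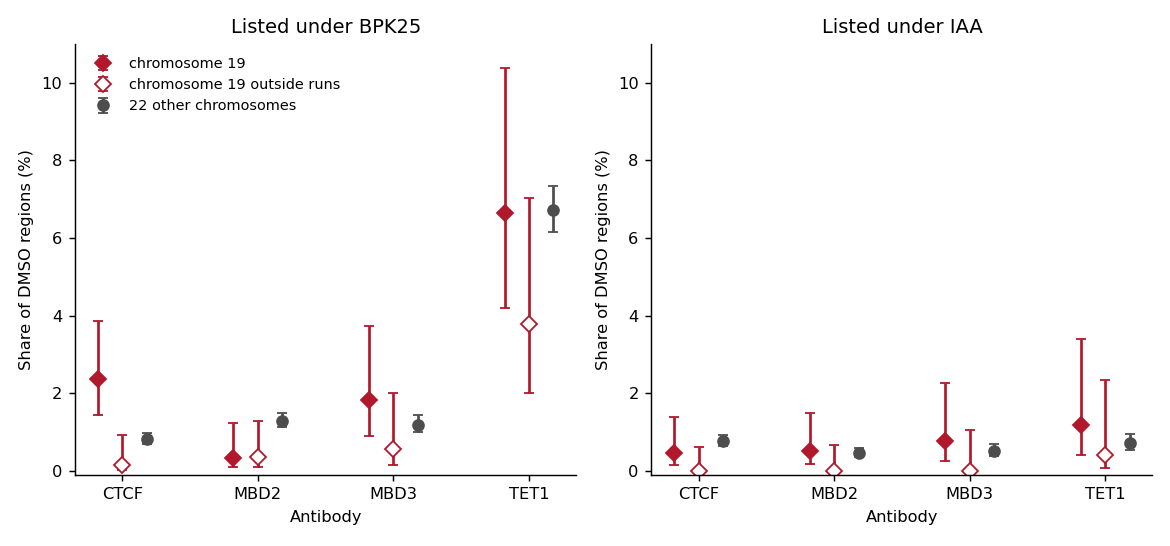
Share of DMSO regions that overlap a region of the same antibody under BPK25 (left) or IAA (right), in percent with 95% Wilson intervals, for chromosome 19, for chromosome 19 outside runs of treated regions, and for the pooled other chromosomes. Under BPK25 the CTCF share is 2.37% on chromosome 19 and 0.164% outside runs, and under IAA the CTCF, MBD2 and MBD3 shares outside runs are 0; runs are made of treated regions, so shares outside them are lower by construction.

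The largest run lay from 50595852 to 50632081 and spanned 36.2 kb. Each DMSO list had 9 regions in it, with CTCF folds from 5.32 to 7.31, MBD2 from 5.68 to 7.35, MBD3 from 3.77 to 5.27 and TET1 from 2.93 to 3.81. Under BPK25 all 9 CTCF regions were listed, with folds from 6.88 to 10.5 and pileups from 17 to 29 fragments. TET1 kept 7 of them, at folds from 2.86 to 5.81, and MBD3 kept 4, at 4.63 to 7.08, whereas MBD2 kept 0 of 9. IAA left none of the 9 in any list. Summits were spaced at intervals of 2 lengths. In DMSO, 3 of the 8 intervals between CTCF summits measured 3042 to 3071 bp and the other 5 measured 5320 to 5358 bp. Under BPK25 the intervals in the same order measured 5326, 3067, 3073, 3054, 5357, 5351, 5374 and 5336 bp. The local background was raised across the run, at 5.24 to 8.34 times the floor for CTCF in DMSO and 5.05 to 10.7 times under BPK25. Folds of lists of different depth are given side by side and not compared.

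A second run lay from 48412591 to 48448155 and spanned 35.6 kb. Here DMSO listed 9 CTCF, 8 MBD2, 9 MBD3 and 6 TET1 regions, with CTCF folds from 2.2 to 8.63. BPK25 left 4 of the 9 CTCF regions, with folds of 4.12, 6.84, 6.0 and 5.11, and 1 of the 6 TET1 regions, while MBD2 and MBD3 kept none. IAA left none in any list. The background stood at 2.33 to 8.67 times the floor for CTCF in DMSO. Of the 44 DMSO CTCF regions on chromosome 19 with a background over 3 times the floor or too significant to be solved, 14 lay from 47628533 to 48460931 and 15 from 49474279 to 50642823. Both stretches hold one of these runs.

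**Figure D5:**
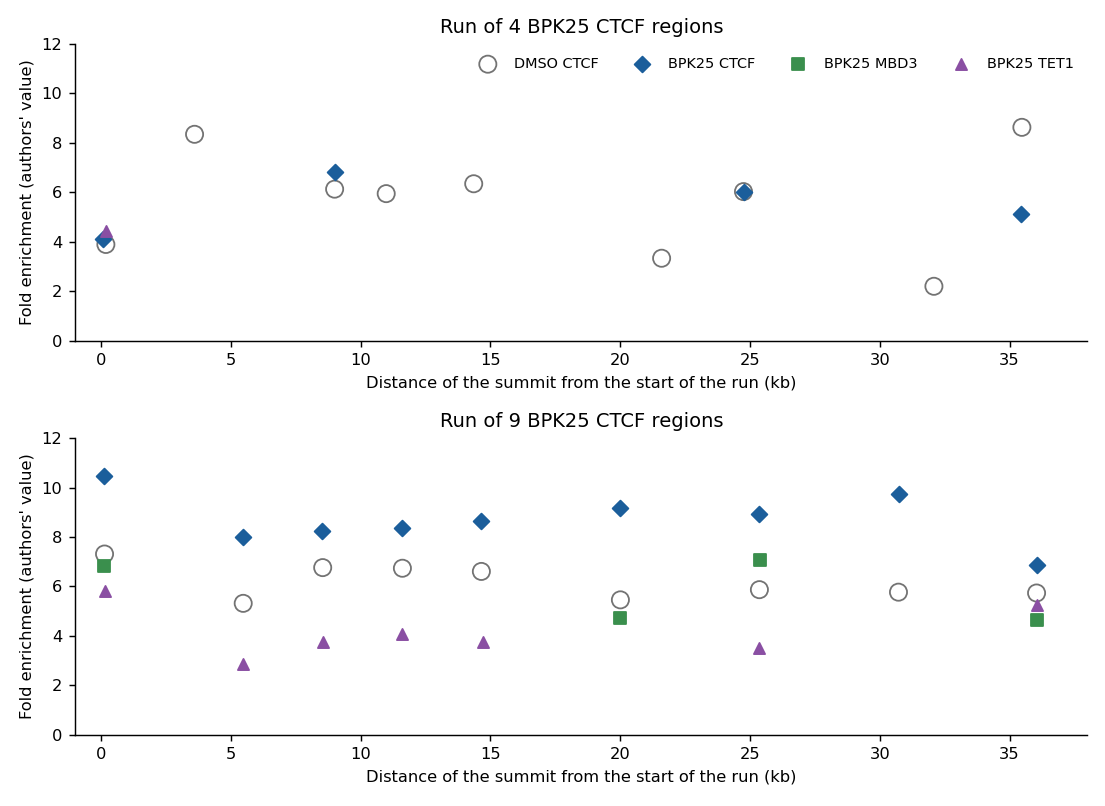
Authors' fold enrichment at each summit by distance from the start of the run (kb), for the run with 4 (upper) and with 9 (lower) BPK25 CTCF regions; circles are DMSO CTCF, and filled marks are BPK25 CTCF, MBD3 and TET1. In the lower panel all 9 DMSO CTCF positions carry a BPK25 CTCF region, 7 a TET1 and 4 an MBD3 region.

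Another run, of 6.69 kb, from 27731951 to 27738641, bordered the longest empty interval. It held the locus listed most often on the chromosome, 27731951 to 27732339, which appeared in 10 of the 12 lists and was missing from MBD2 and TET1 under BPK25. Its fold was low in all 10, at 2.16, 2.19, 2.05 and 1.94 for CTCF, MBD2, MBD3 and TET1 in DMSO, at 2.21 for CTCF and 2.39 for MBD3 under BPK25, and at 2.38, 2.45, 2.44 and 2.23 under IAA. Background at the run's solved CTCF regions was 292 to 298 times the floor in DMSO and 343 to 478 times under IAA, far above that of the other runs. At the run's 1 BPK25 CTCF region it was 1872 times the floor of that list.

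IAA left 3 of 633 CTCF regions, 0.474% (0.161% to 1.38%), with a background of 0.952%. It left 3 of 588 MBD2 regions, 0.510% with a background of 0.613%, 3 of 383 MBD3 regions, 0.783% with a background of 0.740%, and 3 of 256 TET1 regions, 1.17% with a background of 1.07%. All of these shares were near or below the background. The CTCF, MBD2 and MBD3 regions left, and 2 of the 3 TET1 regions, lay in the run beside the empty interval. The remaining TET1 region, from 7515672 to 7515855, had a fold of 1.92 and a background 29.3 times the floor. The same locus was also 1 of the 2 DMSO MBD2 regions left by BPK25, from 7515622 to 7515904, with a fold of 2.32.

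Among the BPK25 lists, TET1 had the largest share of its regions at DMSO positions. All 23 BPK25 TET1 regions on chromosome 19 lay at DMSO CTCF and MBD2 regions, 22 at MBD3 and 18 at TET1 itself, and 18, or 78.3%, met all 4. On the other chromosomes 86.1% lay at DMSO CTCF, 86.8% at MBD2, 76.3% at MBD3 and 57.2% at all 4, so most of this is shared with the rest of the list. None lay outside DMSO regions, with a background of 5.41% for the whole list. Of these regions 21 lay after the empty interval and 2 before it, beside 158 and 98 for TET1 in DMSO. The BPK25 CTCF list had 19 after and 3 before, and MBD3 had 10 and 1, while MBD2 had 2 and 7. Without a DMSO TET1 region, the highest BPK25 TET1 regions were 43297660 to 43297861, at a fold of 8.34, and 46898921 to 46899158, at 6.83. With one, they were 42612738 to 42612959, at 7.85, and 34921703 to 34921945, at 6.26. From 42 to 44 Mb there were 7 BPK25 TET1 regions and 2 MBD2 regions. Both MBD2 regions lay at 1 broad DMSO locus, from 43694710 to 43697238, and the higher, from 43696391 to 43697238, had a fold of 6.47 beside a TET1 fold of 4.52. BPK25 MBD3 was highest from 46386661 to 46386891, at 7.11, and from 50621084 to 50621366 in the largest run, at 7.08.

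Treated regions lay at a DMSO region of their own antibody in 15 of 22 cases for CTCF under BPK25 (background 59.5%), 3 of 9 for MBD2 (46.5%), 7 of 11 for MBD3 (46.5%) and 18 of 23 for TET1 (64.2%). Under IAA they did so in 3 of 17 cases for CTCF (28.6%), 3 of 4 for MBD2 (71.7%), 3 of 4 for MBD3 (78.9%) and 3 of 3 for TET1 (77.0%). These backgrounds are over whole lists, which also hold regions outside chromosomes 1 to 22 and X. The pooled other chromosomes gave 49.6%, 44.3%, 39.6% and 63.5% under BPK25, in the same order of antibodies. Under IAA they gave 25.3%, 79.1%, 94.3% and 87.7%. Others lay at no DMSO region of any antibody. Under BPK25 these were 7 of 22 for CTCF, with a background of 38.9%, 6 of 9 for MBD2, with a background of 45.1%, and 4 of 11 for MBD3, with a background of 46.0%. The pooled other chromosomes gave 48.2%, 47.4% and 54.6%. The 7 CTCF regions had small pileups of 5 to 12 fragments. Their highest, from 2938966 to 2939232, had a fold of 9.98 and was in no other list. Under IAA the count was 14 of 17 for CTCF, with a background of 70.1%, and 1 of 4 for MBD3, with a background of 17.9%. On the pooled other chromosomes the shares were 73.4% for CTCF and 1.89% for MBD3, the latter 1 of 53. The MBD3 region on chromosome 19 lay in the run beside the longest empty interval, with a local background 160 times the floor. All 6 BPK25 MBD2 regions without a DMSO region overlapped an IAA CTCF region, with a background of 70.4%. In turn 6 of the 14 IAA CTCF regions without a DMSO region overlapped a BPK25 MBD2 region, with a background of 37.2%. The strongest pair lay from 14181226 to 14181919, where IAA CTCF had a fold of 36.1 and a pileup of 79 and BPK25 MBD2 had 13.4 and 44. Next came 16212227 to 16212765, at 16.5 for IAA CTCF and 6.67 for BPK25 MBD2. These 6 were 6 of the 9 BPK25 MBD2 regions and 6 of the 17 IAA CTCF regions on the chromosome, and all lay before the longest empty interval. The fold of 36.1 was the highest of the IAA CTCF list on chromosome 19, at a position where no DMSO list had a region.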

How the data were processed

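ChIP-seq of HEK293T cells gave 36 immunoprecipitated and 9 input libraries, in groups taken from the treatment and antibody in the labels. Per the submitters' processing notes, the tools included Bowtie2 2.3.4, SAMtools 1.9 and MACS2 2.1.2, on hg19, with caller settings not stated there. The 12 deposited lists hold peaks called on pooled replicates. In them, the authors' fold enrichment is a linear ratio, the deposited significance is −log10 of a p-value or q-value, the deposited score is an integer for display that was not used, and the deposited summit offset is in bp. No label says whether the replicates are separate cultures.

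Summits within the same start and end were merged into 1 region, which took the values of its most significant summit. Regions were shared when they overlapped by 1 bp or more. Chromosomes 1 to 22 and X were compared, with the furthest region end as length, and bins took regions by summit. Backgrounds are shares over whole lists, including regions outside these chromosomes. Pileup and local background were recovered from fold, read as pileup plus 1 over background plus 1, and −log10 p, read as a Poisson upper tail, within 0.02% or rounding. Of 53620 regions over the 12 lists with a −log10 p up to 150, 53609 were solved. Library depth is unknown from peak lists. Shares carry 95% Wilson intervals. With 1 list per group, no test between groups was possible. The scripts were tested on simulated data in SciPy 1.17.1, pandas 2.3.3 and numpy 2.4.6 under Python 3.11.15.

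The region set, lists and alternatives were chosen with earlier results of these data known. Named regions are the 2 of highest fold in each DMSO list and, in each treated list, the 2 of highest fold with and the 2 without a DMSO region of the same antibody, with −log10 q of 5 or more, and loci in 8 or more lists; named bins are the 5 densest for CTCF, the empty ones and those with most treated regions. Other regions were named after their values were seen. Gene names, motifs and sequences were not used here.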

Additional observations from a re-analysis of the deposited data

How the results depend on the processing

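With 1 pooled list per group, replicates could not be left out, and depth and copy number per library were not measured. No paired analysis was possible because replicates were pooled before peaks were called. Requiring 50% overlap of the shorter region left all 16 shares within their intervals, and the densest bin held 36 CTCF regions with borders shifted by 0.5 Mb and 31 per Mb in bins of 2 Mb, against 34. A least fold of 5, which shortens the lists unequally, raised the share of each DMSO list on chromosome 19 to 4.93% (CTCF), 4.49% (MBD2), 4.78% (MBD3) and 4.04% (TET1). It lowered the CTCF regions with MBD2 to 65.6%, with MBD3 to 28.1%, with TET1 to 7.41% and with all 3 to 5.19%, raised those with none to 30.7%, and lowered MBD2 regions with CTCF to 66.3%. It gave 4.81% for CTCF and 13.6% for TET1 (3 of 22) under BPK25, and 0% for the 4 antibodies under IAA. A −log10 q of 5 or more gave 32.1% of CTCF regions with TET1, 89.4% of MBD3 with CTCF and 92.5% of TET1 with CTCF. With a background of at most 3 times the floor required in both the DMSO and the treated list, BPK25 left 0.170% for CTCF, 0.576% for MBD3 and 3.03% for TET1, and IAA left 0% for all 4. Without runs, an alternative chosen after seeing the data that removes treated regions by construction, BPK25 left 0.164% for CTCF, 0.554% for MBD3 and 3.78% for TET1, and IAA left 0% for CTCF, MBD2 and MBD3. Without chromosome ends and centromere flanks, IAA left 0% for the same 3. Summits within 150 bp left 0% of MBD2 regions under BPK25. The other shares under these alternatives stayed within the interval of the main value.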
